A study of Homo sapiens with 6 samples.

Results

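Glycolysis and hypoxia-response genes of A431 cells were followed by RNA sequencing of A431CT and Dsg2KO cells. The list holds 42 genes of the 21462 in the deposited count table, matched by gene symbol, and all 42 were present. It was put together because SLC16A3 and GAPDH were lower in Dsg2KO cells in this same comparison, so the values of the listed genes are given as a description and no test is used to support them. A431 is an established keratinocyte line from an epidermoid carcinoma. A431CT carries the wild-type genotype and Dsg2KO a CRISPR/Cas9 knockout of DSG2, the gene of the desmosomal cadherin Desmoglein-2. Both lines came from another laboratory and were grown without a further treatment in medium with high glucose and fetal bovine serum. PolyA RNA was sequenced from 3 samples of each line. The study describes the 3 samples of each line as biological replicates. Neither the labels nor the methods say whether the knockout line is 1 clone. In bulk RNA, fewer cells that express a gene and less RNA of that gene per cell cannot be told apart.

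Glycolysis breaks glucose down to pyruvate, and lactate dehydrogenase turns pyruvate into lactate, which leaves the cell through monocarboxylate transporters. HIF, a transcription factor made of an oxygen-regulated alpha subunit and ARNT, raises many of these genes when oxygen is short. Prolyl hydroxylases of the EGLN family mark the alpha subunits for destruction when oxygen is present, and 1 of them, EGLN3, is itself a HIF target. Many carcinoma cells are known for strong glycolysis even with oxygen at hand.

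The targeted gene was checked first. DSG2 was counted at 323 ± 6.08 CPM (counts scaled by library size and TMM factor with the cpm function of edgeR; SD, n = 3) in A431CT cells and at 51.9 ± 2.88 CPM in Dsg2KO cells. Total counts per library ranged from 12845719 to 13650746 in A431CT cells and from 14786041 to 16255692 in Dsg2KO cells, and 3 counts, taken as the floor, corresponded to 0.184 to 0.236 CPM. The floor covers counting error only, while the SD values and the standard errors below also hold the spread between libraries. Of 10 keratinocyte markers, KRT14 and PKP1 were at or under the floor in every library, and the summed level of the list was 10508 to 11227 CPM in A431CT and 11407 to 11811 CPM in Dsg2KO libraries. Of 6 fibroblast markers, 5 were at or under the floor in every library. The 5 endothelial markers summed to 8.53 to 11.5 CPM in A431CT and 15.1 to 15.7 CPM in Dsg2KO libraries, with KDR and TEK at or under the floor. The 5 melanocyte markers summed to 17.8 to 18.5 CPM in A431CT and 14.2 to 16.9 CPM in Dsg2KO libraries, with MLANA, TYR and DCT at or under the floor. For 5 leukocyte markers the sums were 1.49 to 2.65 and 1.41 to 2.69 CPM. The part of these markers in the values below was not tested.

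The list as a whole was lower in Dsg2KO cells. Its genes took 1.77, 1.80 and 1.74% of all counts in the 3 A431CT libraries and 1.60, 1.62 and 1.55% in the 3 Dsg2KO libraries. GAPDH alone held 0.334 to 0.344% of the counts in A431CT and 0.275 to 0.290% in Dsg2KO libraries. Of the 42 genes, 40 had enough counts to be tested, and SLC2A3 and CA12 did not. A log2 fold change below is the edgeR estimate for Dsg2KO over A431CT. The median over the 40 genes was -0.24, beside -0.0048 over all 12857 genes tested, and 29 values were negative and 11 positive.

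A gene was counted as lower or higher past both thresholds when edgeR's quasi-likelihood test gave an adjusted p under 0.05 and the log2 fold change was at least 0.5 in size. By this rule 6 genes of the list were lower, namely SLC16A3, EGLN3, BNIP3, ANKRD37, CA9 and DDIT4, beside 3.03% of all genes tested. The number of higher genes was 0 in edgeR, also at an unadjusted p under 0.05, and 0 in DESeq2, beside 2.99% of all genes tested. With the adjusted p alone 25 genes were lower and 2, PFKL and SLC16A1, were higher, where the shares over all genes tested were 15.3% and 14.3%. The libraries of the groups did not overlap for 26 genes on the lower side and 5 on the higher side, beside 21.4% and 21.2% of all genes tested. In 19 of the 25 lower genes the fold minimum was not reached, and their log2 fold changes ran from -0.49 to -0.13. The remaining 13 tested genes passed neither threshold. "Lower" and "higher" stand below for the adjusted p alone unless both thresholds are named.

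**Figure D1:**
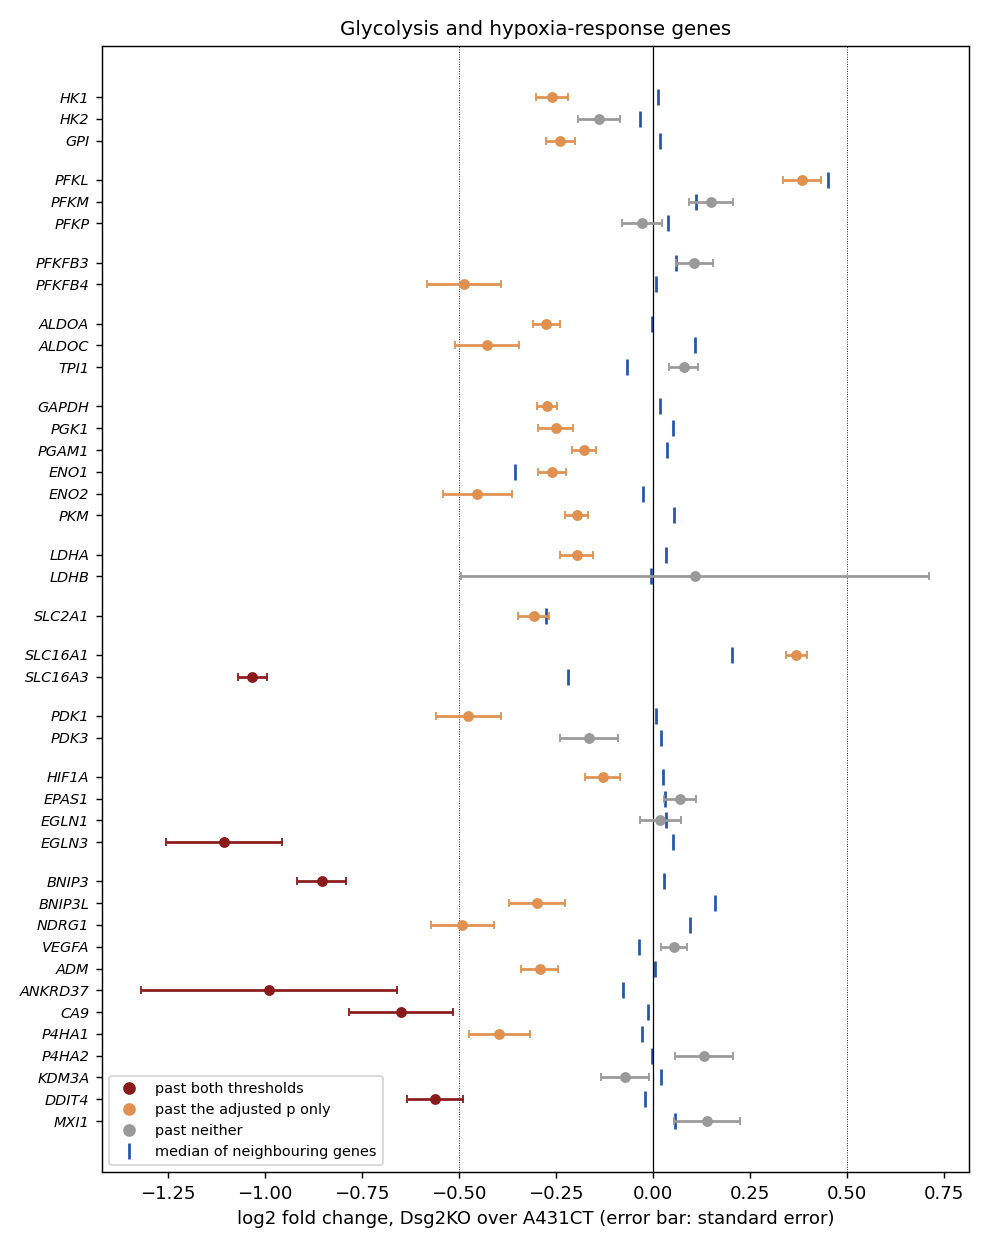
Log2 fold change of each of the 40 tested genes (Dsg2KO over A431CT, x axis), grouped by role from glucose entry at the top to hypoxia-response targets at the bottom, with bars for the standard error and blue ticks for the median of the 25 nearest tested genes on each side. The 6 dark red points, past both thresholds, all lie left of -0.5, most glycolytic enzymes sit between -0.3 and -0.1, and the ticks of PFKL, ENO1 and SLC2A1 lie beside their points.

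Neighbouring genes on some chromosomes shifted together between the lines. For this reason the median log2 fold change of the 25 nearest tested genes on each side was set beside each gene. It was at least 0.15 in size for 6 of the 40 genes: PFKL, ENO1, SLC2A1, SLC16A1, SLC16A3 and BNIP3L. Over the 40 genes the median after subtraction of this neighbour value was still -0.24. Among libraries of a group, A431CT replicate 3 had the lowest CPM in 16 of the 25 lower genes (64%) and in 34.7% of all genes tested, so the libraries differed in these genes also within A431CT. Dsg2KO replicate 3 was the lowest of its group in 12 of the 25.

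The promoters of the 6 genes past both thresholds, and of LDHA, are shown because HIF binds a short core that can be read in them. Windows were the 250 bases before the RefSeq start on GRCh38.p14, available for 37 of the 42 genes. The cores ACGTG and GCGTG were searched on both strands. The E-box CACGTG, a site of the MYC family, holds ACGTG on both strands and so counts as 2 matches of it. Matches on either strand stand in capitals, and each sequence runs 5′ to 3′ along the strand of its gene.
SLC16A3, chr17:82228792-82229041, plus strand: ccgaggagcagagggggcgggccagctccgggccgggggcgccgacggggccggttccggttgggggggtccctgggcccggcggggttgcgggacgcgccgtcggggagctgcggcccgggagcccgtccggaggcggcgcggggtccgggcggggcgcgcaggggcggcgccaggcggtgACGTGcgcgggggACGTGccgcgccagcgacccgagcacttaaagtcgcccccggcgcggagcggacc
BNIP3, chr10:131981924-131982173, minus strand: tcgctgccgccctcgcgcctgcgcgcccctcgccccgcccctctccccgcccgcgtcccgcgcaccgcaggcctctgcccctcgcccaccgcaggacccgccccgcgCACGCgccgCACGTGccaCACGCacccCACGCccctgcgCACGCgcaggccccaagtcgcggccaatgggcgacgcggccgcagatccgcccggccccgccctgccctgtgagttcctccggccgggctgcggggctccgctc
ANKRD37, chr4:185396591-185396840, plus strand: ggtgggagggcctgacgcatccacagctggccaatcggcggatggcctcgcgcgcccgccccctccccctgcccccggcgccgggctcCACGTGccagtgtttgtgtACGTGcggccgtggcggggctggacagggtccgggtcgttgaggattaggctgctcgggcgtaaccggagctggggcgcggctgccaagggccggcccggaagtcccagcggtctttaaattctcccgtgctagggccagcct
CA9, chr9:35673678-35673927, plus strand: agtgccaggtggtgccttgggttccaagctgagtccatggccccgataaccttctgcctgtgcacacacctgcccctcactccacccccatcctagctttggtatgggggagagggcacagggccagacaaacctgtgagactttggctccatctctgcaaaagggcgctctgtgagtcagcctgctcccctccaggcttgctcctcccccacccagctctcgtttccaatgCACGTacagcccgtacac
DDIT4, chr10:72273674-72273923, plus strand: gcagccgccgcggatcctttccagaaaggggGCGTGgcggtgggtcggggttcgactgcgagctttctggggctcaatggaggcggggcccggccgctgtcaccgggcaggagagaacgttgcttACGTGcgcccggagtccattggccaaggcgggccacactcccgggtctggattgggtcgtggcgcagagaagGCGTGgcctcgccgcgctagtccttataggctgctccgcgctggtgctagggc
EGLN3, chr14:33951075-33951324, minus strand: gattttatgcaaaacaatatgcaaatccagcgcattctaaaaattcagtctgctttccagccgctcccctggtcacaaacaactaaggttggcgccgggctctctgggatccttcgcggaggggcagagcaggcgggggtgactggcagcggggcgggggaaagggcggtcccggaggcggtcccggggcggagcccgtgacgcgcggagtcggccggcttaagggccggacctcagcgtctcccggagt
LDHA, chr11:18394313-18394562, plus strand: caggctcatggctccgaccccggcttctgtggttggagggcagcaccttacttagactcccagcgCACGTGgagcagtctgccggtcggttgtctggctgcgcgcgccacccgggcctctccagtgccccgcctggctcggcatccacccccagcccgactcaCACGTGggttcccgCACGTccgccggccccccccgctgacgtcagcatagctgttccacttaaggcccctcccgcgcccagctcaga
SLC16A3 held 2 matches to ACGTG close to the start, BNIP3 held 2 of ACGTG and 4 of GCGTG, and ANKRD37 held 3 of ACGTG. CA9 held 1 match to ACGTG at the end of its window, and DDIT4 held 1 to ACGTG and 2 to GCGTG. EGLN3 held neither core in these 250 bases, which says nothing of sites elsewhere. LDHA had 5 matches to ACGTG, the highest number in the list, of which 4 came from 2 copies of CACGTG.

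Over the list, ACGTG occurred in 18 of 37 windows (48.6%), beside 21% of the 15085 windows of all genes. For GCGTG the shares were 40.5% and 40.6%. CACGTG occurred in 16.2% of the listed windows and 7.9% of all windows. Among the lower genes 14 of 23 windows held ACGTG (60.9%), and among the remaining genes of the list 4 of 14 did (28.6%). For GCGTG the counts were 9 of 23 (39.1%) and 6 of 14 (42.9%). For CACGTG, which also counts as ACGTG, they were 5 of 23 (21.7%) and 1 of 14 (7.14%). The remaining genes include CA12, which was not tested for a change. The list was assembled from known hypoxia-response genes, many of them defined through such cores, and a match is a description of letters only.

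SLC2A1 (GLUT1), a glucose transporter gene, lies on chromosome 1. Its level was 135, 134 and 135 CPM in A431CT and 109.9, 108 and 108 CPM in Dsg2KO libraries. The groups did not overlap and the spread within each was small, and the log2 fold change was -0.31 (standard error, SE, 0.04). Genes around SLC2A1 had a median of -0.28, and the difference from them was -0.03. SLC2A3 (GLUT3) was near the floor, with 2, 1 and 1 counts in A431CT and 3, 3 and 9 counts in Dsg2KO libraries, and no fold is given.

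The first steps of glycolysis did not move as 1 block. HK1, the hexokinase that traps glucose in most cells, was lower, at 173, 180.3 and 179 CPM in A431CT and 153, 143 and 148 CPM in Dsg2KO libraries. The inducible hexokinase HK2 overlapped between groups, with 119.9 ± 8.62 CPM against 109 ± 4.08 CPM and a log2 fold change of -0.14 that did not pass. GPI, which turns glucose 6-phosphate into fructose 6-phosphate, was lower without overlap, at 296 ± 8.60 CPM against 251 ± 2.94 CPM. Phosphofructokinase, the committed step, has 3 subunit genes. PFKL was higher, at 83.0, 80.5 and 76.8 CPM in A431CT and 101, 105 and 108 CPM in Dsg2KO libraries. It lies on chromosome 21, where its neighbours had a median of 0.45, and its own value of 0.38 became -0.068 after subtraction. PFKM had a log2 fold change of 0.15 without overlap of the groups and PFKP one of -0.03 with overlap, and neither passed. In the 14 alternatives PFKM passed the adjusted p in 5 and PFKP in 0. The bifunctional PFKFB enzymes set the level of fructose 2,6-bisphosphate, which activates phosphofructokinase. PFKFB4, a HIF target, was lower, at 20.8, 21.8 and 18.2 CPM in A431CT and 14.8, 14.5 and 14.0 CPM in Dsg2KO libraries. PFKFB3 overlapped between groups, with 203 ± 15.4 CPM against 219 ± 2.08 CPM.

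The 6 genes of lower glycolysis, from GAPDH to PKM, were all lower, and none of them overlapped between groups. GAPDH, the dehydrogenase that oxidises glyceraldehyde 3-phosphate and a common reference gene, was at 3397, 3464 and 3375 CPM in A431CT and at 2862, 2885 and 2726 CPM in Dsg2KO libraries. Every Dsg2KO library lay below every A431CT library, by a log2 fold change of -0.27 (SE 0.03). A transcript whose CPM did not differ between the lines would thus read 1.21 times higher in Dsg2KO cells when expressed relative to GAPDH. GAPDH was the reference of the qPCR in this study. That qPCR also covered HaCaT and MCF7 cells, which are not part of these data. PGK1, which makes the first ATP of the pathway, was at 765 ± 36.9 CPM in A431CT and 643 ± 39.3 CPM in Dsg2KO cells. PGAM1, the phosphoglycerate mutase, was at 1096 ± 17.6 against 970.1 ± 22.9 CPM. Its retrogene PGAM4 is nearly identical, so reads could be split between them. PKM, the pyruvate kinase, was at 2823 ± 45.8 against 2465 ± 95.4 CPM.

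The enolases ENO1 and ENO2 gave different pictures once their surroundings were considered. ENO1, the main form, was at 1798, 1760.0 and 1787 CPM in A431CT and 1536, 1538 and 1389.9 CPM in Dsg2KO libraries. Its log2 fold change was -0.26, its neighbours on chromosome 1 had a median of -0.36, and the difference was 0.10. ENO2, the neuronal form and a HIF target, was at 26.7, 25.4 and 26.4 CPM against 21.7, 17.7 and 18.1 CPM. It had a log2 fold change of -0.45, with neighbours at -0.03. Of the aldolases, ALDOA was at 1478 ± 51.4 against 1222 ± 50.7 CPM and ALDOC at 25.6 ± 2.06 against 19.0 ± 0.519 CPM, both lower without overlap. TPI1, the triose phosphate isomerase, was an exception in the middle of the pathway, with overlapping groups at 706 ± 37.3 and 746 ± 2.61 CPM.

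Of the 15 enzymes that carry out the reactions from glucose to pyruvate, 10 were lower and 1, PFKL, was higher. HK2, PFKM, PFKP and TPI1 passed neither threshold. The 8 lower enzymes with at least 100 CPM in A431CT cells kept within a narrow range, with log2 fold changes from -0.27 to -0.18, or a change of -17.3 to -11.5% in mean CPM. The 2 less abundant forms, ALDOC and ENO2, were at -0.43 and -0.45. Several of these enzymes, GAPDH, PGK1, ENO1 and LDHA among them, have processed pseudogenes, and how reads that map to more than 1 place were assigned is not given in the sources used here.

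**Figure D2:**
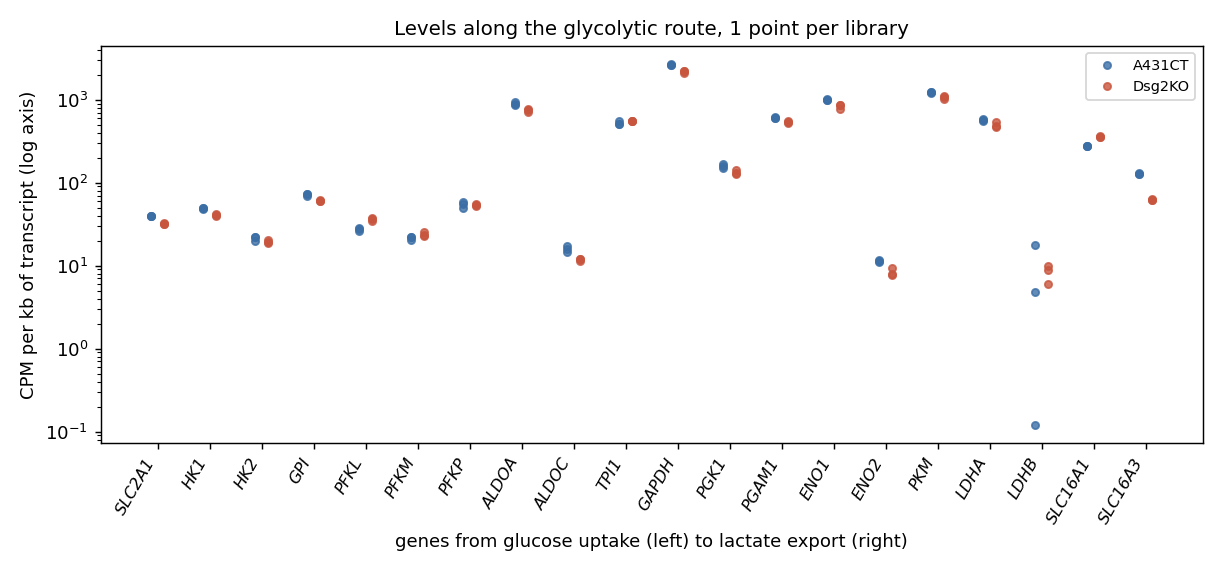
Level of each gene of the route from glucose uptake (left) to lactate export (right), in CPM per kb of transcript on a log axis, with 1 point per library for A431CT (blue) and Dsg2KO (red). GAPDH is the highest, at 2655 CPM per kb in A431CT cells, the shifts of most enzymes are small beside the differences between genes, and LDHB alone spreads over more than a decade within A431CT.

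The levels of the genes differed far more than their shifts. Per kb of the canonical transcript, GAPDH had the highest level of the list in A431CT cells, at 2655 CPM per kb. PKM followed at 1225, ENO1 at 1000.5, ALDOA at 901, PGAM1 at 608, LDHA at 568 and TPI1 at 522 CPM per kb. Hexokinases and phosphofructokinases guard the entry of the pathway. In A431CT cells they stood below these levels, between 21.3 CPM per kb for HK2 and 54.5 CPM per kb for PFKP. Dsg2KO cells had the same leading gene, with GAPDH at 2198 CPM per kb.

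Lactate dehydrogenase was almost all LDHA. LDHA was lower, at 1278, 1305 and 1233 CPM in A431CT and 1076, 1197 and 1058 CPM in Dsg2KO libraries, a log2 fold change of -0.20 (SE 0.04). By level per kb it made up 98.7 ± 1.52% of LDHA plus LDHB in A431CT and 98.4 ± 0.379% in Dsg2KO cells. LDHB, which favours the reaction back to pyruvate, varied widely among the A431CT libraries, with 2, 315 and 80 counts. The Dsg2KO libraries held 193, 188 and 128 counts, all inside the A431CT range. The log2 fold change of LDHB was 0.11 with an SE of 0.60. Without A431CT replicate 2 it became 1.75 and passed both thresholds, and without A431CT replicate 1 it became -0.46. It was also negative without A431CT replicate 3 (-0.14) and without Dsg2KO replicate 1 (-0.04). Its value and direction thus changed with the library left out.

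The 2 lactate transporters of the list went in opposite directions. SLC16A3 (MCT4), the exporter of highly glycolytic cells and a HIF target, lies on chromosome 17 from 82217934 to 82261129 (GRCh38). It was at 339, 327 and 329 CPM in A431CT and at 161, 164 and 162 CPM in Dsg2KO libraries. The groups were far apart and each was tight, and the mean fell by 51.1%, with a log2 fold change of -1.03 (SE 0.04). Its neighbours had a median of -0.22, which left -0.81. SLC16A3 shares 482 exonic bases (5.22% of its own) with CSNK1D on the opposite strand, whose level was 48.0 CPM in A431CT and 61.8 CPM in Dsg2KO cells. Whether the counting used strand is not given in the sources used here.

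SLC16A1 (MCT1), the transporter that moves lactate in either direction, was higher. Its level was 1036, 1047 and 1040.0 CPM in A431CT and 1352, 1325 and 1361 CPM in Dsg2KO libraries, again without overlap. The log2 fold change was 0.37 (SE 0.03), below the fold minimum, and its neighbours on chromosome 1 had a median of 0.20, which left 0.17. By level per kb, SLC16A3 made up 31.5 ± 0.513% of both transporters in A431CT and 14.8 ± 0.272% in Dsg2KO cells. Of the 2 chaperones that carry these transporters to the membrane, BSG overlapped between groups, with a log2 fold change of -0.05. EMB had one of 0.50 (adjusted p = 1.74e-05, edgeR), higher in 3 of 3 Dsg2KO libraries and just under the fold minimum.

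**Figure D3:**
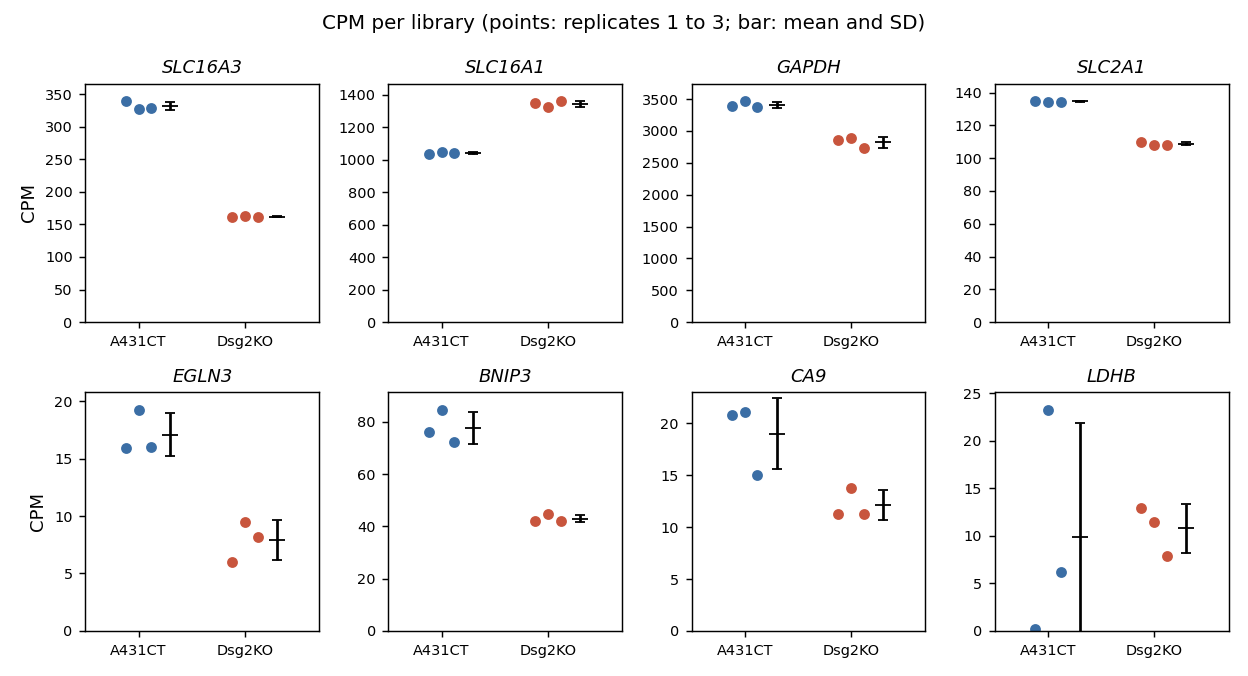
CPM in each library for 8 genes, with A431CT replicates 1 to 3 in blue, Dsg2KO replicates 1 to 3 in red, and bars for the mean and SD of 3 libraries (the LDHB bar is drawn down to 0). SLC16A3 is at 327 to 339 CPM in A431CT and 161 to 164 CPM in Dsg2KO libraries, SLC16A1 goes the other way, and the A431CT points of LDHB spread from 0.157 to 23.2 CPM.

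Pyruvate dehydrogenase kinases keep pyruvate out of the citric acid cycle by shutting off pyruvate dehydrogenase. PDK1, the kinase that HIF induces, was lower, at 27.8, 29.5 and 26.1 CPM in A431CT and 18.7, 19.6 and 21.6 CPM in Dsg2KO libraries. The log2 fold change was -0.48 (SE 0.08), and it passed the fold minimum without A431CT replicate 3 (-0.52) or without Dsg2KO replicate 3 (-0.54). PDK3 overlapped between groups, at 36.6 ± 3.08 and 32.7 ± 1.78 CPM.

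The HIF alpha subunits themselves differed little in RNA. HIF1A was at 249, 235 and 258 CPM in A431CT and 233, 216 and 229 CPM in Dsg2KO libraries, without overlap but with the nearest libraries close to each other. Its log2 fold change of -0.13 (SE 0.04) passed the adjusted p with all libraries and in 8 of 14 alternatives. It did not pass with total counts as the only scaling. Nor did it pass without A431CT replicate 1 or 3 or without any 1 of the Dsg2KO replicates, with log2 fold changes from -0.15 to -0.09 in these fits. EPAS1, the gene of HIF-2 alpha, was at 214 ± 5.61 CPM in A431CT and 225 ± 7.91 CPM in Dsg2KO cells and passed neither threshold. HIF protein, through which oxygen acts, was not measured in these data.

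The hydroxylases of the HIF alpha subunits parted. EGLN1, the main oxygen sensor of most cells, overlapped between groups, at 68.7 ± 0.553 and 69.7 ± 3.75 CPM. EGLN3, on chromosome 14 from 33924227 to 34462774, was past both thresholds. It was at 16.0, 19.2 and 16.0 CPM in A431CT and at 6.04, 9.48 and 8.22 CPM in Dsg2KO libraries. The highest Dsg2KO library lay well under the lowest A431CT library, with a log2 fold change of -1.11 (SE 0.15) among neighbours at 0.05. By level per kb, EGLN3 made up 28.5 ± 2.34% of EGLN1 plus EGLN3 in A431CT and 15.4 ± 3.54% in Dsg2KO cells.

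Of the 13 hypoxia-response targets outside glycolysis, 12 were tested, 8 were lower and 4 of these past both thresholds, and the median log2 fold change of the 12 was -0.35. BNIP3 and BNIP3L are mitophagy receptors that sit in the outer mitochondrial membrane. BNIP3 (chromosome 10, 131967684 to 131981967) was at 76.0, 84.5 and 72.4 CPM in A431CT and 42, 44.7 and 42.2 CPM in Dsg2KO libraries. The mean fell by 44.7% without overlap, with a log2 fold change of -0.85 (SE 0.06). BNIP3L was lower by less, at 51.1 ± 4.59 against 41.6 ± 2.49 CPM, with a log2 fold change of -0.30 among neighbours at 0.16. The share of BNIP3 in both, by level per kb, went from 77.3 ± 1.15% to 69.8 ± 1.73%.

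CA9 and DDIT4 also passed both thresholds. CA9, the cell-surface carbonic anhydrase used as a hypoxia marker, lies on chromosome 9 from 35673928 to 35681159. It was at 20.8, 21.1 and 15.04 CPM in A431CT and at 11.3, 13.8 and 11.3 CPM in Dsg2KO libraries. The groups did not overlap, but A431CT replicate 3 was close to Dsg2KO replicate 2. The log2 fold change was -0.65 (SE 0.13). CA9 shares 35.7% of its exonic bases with ARHGEF39 on the opposite strand, which was at 35.5 CPM in A431CT and 29.8 CPM in Dsg2KO cells. DDIT4 (REDD1), an inhibitor of mTORC1 signalling on chromosome 10 from 72273919 to 72276036, was at 348, 364 and 293 CPM in A431CT and at 241, 238 and 203 CPM in Dsg2KO libraries. Each Dsg2KO library was under each A431CT library, with a log2 fold change of -0.56 (SE 0.07). This fell short of the fold minimum without A431CT replicate 2 (-0.50 after rounding) or without Dsg2KO replicate 3 (-0.49). The related carbonic anhydrase CA12 had 0, 2 and 0 counts in A431CT and 0, 1 and 0 counts in Dsg2KO libraries.

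ANKRD37, an ankyrin repeat gene induced by hypoxia, was called on few counts. It lies on chromosome 4 from 185396021 to 185400628 and had 20, 31 and 30 counts in A431CT and 19, 13 and 17 counts in Dsg2KO libraries. In CPM the groups came close, with 1.57 in A431CT replicate 1 and 1.27 in Dsg2KO replicate 1, and the log2 fold change was -0.99 (SE 0.33). The call was lost in 6 of 14 alternatives. These were DESeq2 and the fits without A431CT replicate 2 or 3 or without Dsg2KO replicate 1, 2 or 3. ANKRD37 shares 40.3% of its exonic bases with UFSP2 on the opposite strand, which was at 11.9 CPM in A431CT and 11.1 CPM in Dsg2KO cells.

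The other lower targets stayed under the fold minimum. NDRG1, a stress-response gene, was at 109.8, 101 and 83.7 CPM in A431CT and 67.9, 75.9 and 65.9 CPM in Dsg2KO libraries. Its log2 fold change of -0.49 passed the minimum without A431CT replicate 3 (-0.59) or without Dsg2KO replicate 2 (-0.55). P4HA1, a subunit of the prolyl hydroxylase that matures collagen, was at 58.1, 60.2 and 48.2 CPM against 39.99, 45.0 and 41.5 CPM. Adrenomedullin (ADM), a vasodilator peptide, was at 111 ± 3.03 against 90.8 ± 3.72 CPM. All of these were lower without overlap of the groups.

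The 4 targets that did not pass included the best known of them. VEGFA, the angiogenic growth factor, was at 391, 382 and 389.6 CPM in A431CT and 409, 393 and 405 CPM in Dsg2KO libraries, a log2 fold change of 0.05 (SE 0.03). Although the groups did not overlap, the difference was small. The histone demethylase KDM3A had a log2 fold change of -0.07 (SE 0.06). P4HA2, the partner gene of P4HA1, was at 0.13 (SE 0.07), and the MYC antagonist MXI1 was at 0.14 (SE 0.08). The share of P4HA1 in both collagen hydroxylase subunits, by level per kb, was 73.8 ± 2.06% in A431CT and 66.3 ± 0.625% in Dsg2KO cells.

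**Figure D4:**
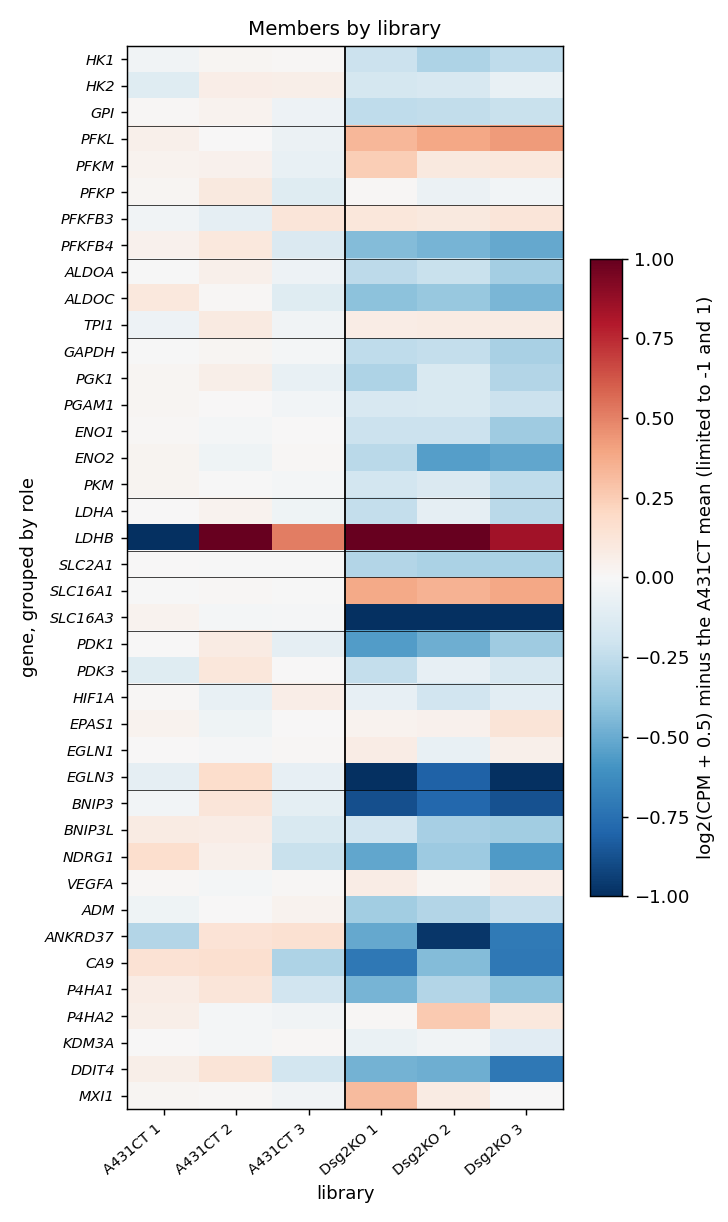
Level of each of the 40 tested genes in each library, as log2(CPM + 0.5) minus the mean of A431CT (colour, limited to -1 and 1), with genes in rows grouped by role, libraries in columns and a line between A431CT and Dsg2KO. SLC16A3, EGLN3 and BNIP3 are dark blue in all 3 Dsg2KO libraries, PFKL and SLC16A1 are red there, and LDHB changes colour within A431CT.

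A further 160 genes of linked pathways were read from the same fit, and 132 of them were tested. Of these, 4 were lower and 6 higher past both thresholds, beside 3.03% and 2.99% of all genes tested. By the adjusted p alone 25 were lower and 23 higher, beside 15.3% and 14.3% of all genes tested. Their median log2 fold change was -0.04. The pentose phosphate pathway, which branches from glycolysis to make NADPH and ribose, had 5 of 8 genes lower, and the median over the 8 was -0.22. PGD and H6PD, 2 dehydrogenases of NADPH production, were at -0.33 and -0.40 and lie among neighbours on chromosome 1 at -0.36.

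The further hypoxia-response genes were split in direction. Of 44 tested, 9 were lower and 12 higher by the adjusted p, beside 15.3% and 14.3% of all genes tested. The median of the list was -0.05. PLOD2, a collagen lysyl hydroxylase, was at 84.2, 82.9 and 77.4 CPM in A431CT and 48.8, 45.0 and 45.6 CPM in Dsg2KO libraries. It fell by 0.81 on the log2 scale (adjusted p = 1e-07, edgeR) in 3 of 3 libraries. ANGPTL4, a lipoprotein lipase inhibitor, rose from 0.865, 1.03 and 1.09 CPM to 3.82, 3.00 and 2.72 CPM, a log2 fold change of 1.66 (adjusted p = 0.000594, edgeR). EFNA3, an ephrin ligand, had a log2 fold change of 0.68, the lysyl oxidase LOXL2 one of 0.67 and the receptor GPRC5A one of 0.62, each higher in 3 of 3 Dsg2KO libraries.

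Further lists covered other branches of glucose metabolism, and their counts stand beside the 15.3% lower and 14.3% higher of all genes tested. Of 27 tested genes of pyruvate dehydrogenase and the citric acid cycle, 3 were lower and 1 was higher, and their median was -0.01. Of 12 HIF partners and regulators, 1 passed, the coactivator CREBBP at 0.14. ARNT, the partner subunit of HIF, and VHL, EGLN2 and HIF1AN, which act on the alpha subunits, had log2 fold changes between -0.05 and 0.04. Of 16 further glycolysis genes, 3 were lower and 4 higher. Past both thresholds were PGAM5, a mitochondrial phosphatase at -0.60 among neighbours at -0.58, and the glucose transporter SLC2A8 at -0.65 among neighbours at 0.02. Of 14 genes of gluconeogenesis and glycogen, 4 were lower and 4 higher, and FBP2, a fructose bisphosphatase, was past both thresholds at 0.61. Of 11 genes of the MYC and MondoA networks, 1 was lower and 1 higher, and MYC itself was at 0.07.

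**Figure D5:**
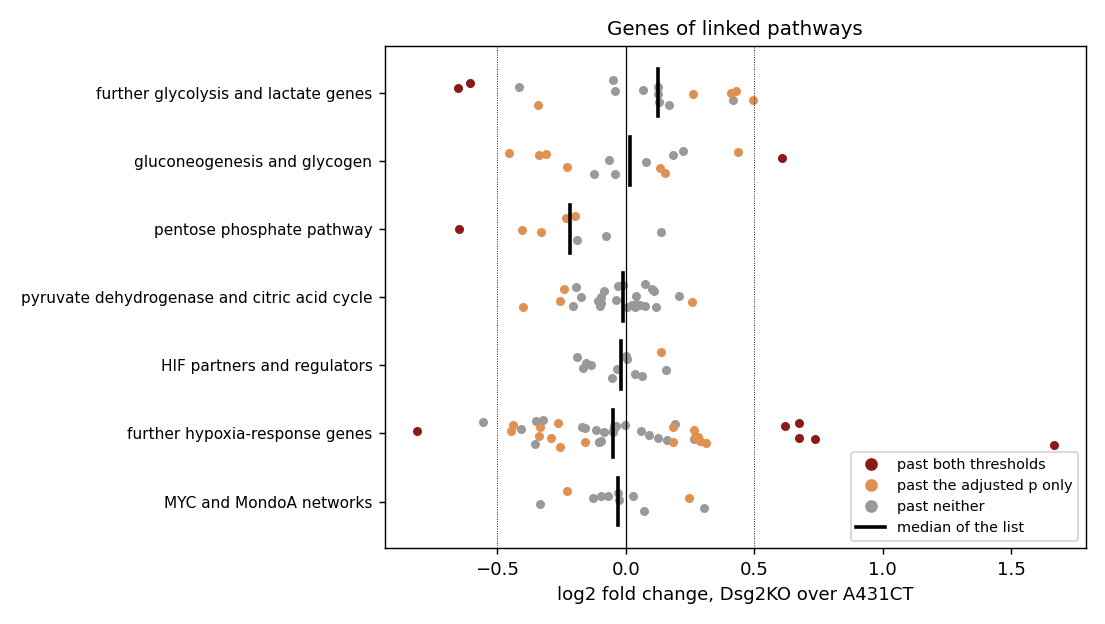
Log2 fold change (Dsg2KO over A431CT, x axis) of each tested gene of 7 linked lists, 1 point per gene, coloured by the thresholds passed, with a black line at the median of each list. The median of the pentose phosphate pathway is at -0.22, those of the other lists lie between -0.05 and 0.13, and ANGPTL4 stands far right at 1.66.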

How the data were processed

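PolyA RNA of A431CT and Dsg2KO cells was sequenced as paired-end reads, with 3 samples per genotype. Per the methods of the study, the authors used CLC Genomics Workbench to trim the reads, to align these to GRCh38/hg38 and to count reads for each gene, and they deposited the counts as whole numbers without normalization. The gene annotation, the strand setting and the handling of reads with several matches are not given in the sources used here. Every column of the table was mapped to 1 sample by its library name.

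Counts were analysed with R 4.3.3 and edgeR 4.0.16: TMM factors (0.990 to 1.01), filterByExpr (minimum count 10, minimum total 15), quasi-likelihood fits without covariates on all 6 libraries, and Benjamini-Hochberg adjustment over 12857 genes. The biological coefficient of variation was 4.79%. The fit was tested on simulated data. Thresholds were those of the study, 0.05 for the adjusted p and 0.5 for the size of the log2 fold change. CPM came from edgeR's cpm function, and log2 fold changes came from the quasi-likelihood fits. The prior count of 2 applied to log2 values from the cpm function and not to these fits. Levels per kb used the canonical transcript of GENCODE 44, which also gave positions for 19478 symbols and the 25 nearest tested genes on each side. Figures were drawn with Python 3.11.15 and matplotlib 3.10.9.

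The 42 genes and all other lists were chosen with earlier results of these data known. All 42 were named, and from each other list the genes past both thresholds, at most 3 per direction, although some genes that this rule names are not reported here. LOXL2, GPRC5A, PGD, H6PD, BSG, EMB, CREBBP, ARNT, VHL, EGLN2, HIF1AN, MYC, PGAM4 and the overlapping genes on the other strand were named after their values were seen. The alternatives were other filters, size factors and tests (with DESeq2 1.42.0), each replicate left out, a replicate block, a fold minimum of 1 and subtraction of the neighbour median.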

Additional observations from a re-analysis of the deposited data

How the results depend on the processing

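Of 599 values of single genes under the alternatives, 584 moved by no more than the gene's own SD within groups. This limit is wide for variable genes and does not register lost calls. LDHB at 1.75 without A431CT replicate 2 stayed within it, as did ANKRD37 in each fit that lost its call. Subtraction of the neighbour median turned the direction of 2 genes that had passed the adjusted p, ENO1 to 0.10 and PFKL to -0.068, and of EGLN1, which had not, from 0.020 to -0.015. A fold minimum of 1 left 2 lower genes of the list in place of 6, and of the linked pathway genes 0 lower in place of 4 (edgeR, also at an unadjusted p under 0.05, since the lowest value was -0.81) and 1 higher in place of 6. With 1 library left out in turn, 4 to 8 genes of the list were lower past both thresholds and 0 to 1 higher, while 23 to 25 were lower and 2 to 4 higher by the adjusted p alone. The 1 higher gene was LDHB without A431CT replicate 2. Over all genes tested, correlations of same-numbered deviations from the group mean were -0.0027, 0.0135 and 0.0539. In the 25 lower genes of the list, the median log2 deviations of replicates 1 to 3 were 0.0134, 0.0377 and -0.0472 in A431CT. In Dsg2KO libraries they were 0.0105, 0.0311 and -0.0394, in the same order. Whether the replicate numbers pair the samples was not tested. With a replicate block 6 genes were lower past both thresholds, and 26 were lower and 3 higher by the adjusted p. DSG2 lay between -2.68 and -2.61 throughout. Counts near the floor limit SLC2A3, CA12 and ANKRD37.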
